A study of Mus musculus with 16 samples.

Results

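The liver's ABC efflux pumps were examined in a mouse model of methylmalonic acidemia, the disease in which methylmalonyl-CoA mutase is missing. The group comprised 10 genes of the 19938 represented by the array: 7 pumps of the canalicular membrane (Abcb11, Abcb4, Abcc2, Abcg2, Abcg5, Abcg8 and Abcb1a) and 3 of the basolateral membrane (Abcc3, Abcc4 and Abcc6). Members were the probe sets annotated to these symbols. Each pump had 1 probe set, so that no choice between probe sets was needed. The symbols were chosen by gene function with results of these arrays already known, and the log2 differences of Abcc4 between genotypes were among the measured values in view. The Abcc4 genotype values below are therefore a description without a test.

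Livers came from 4 groups of 4 male mice aged 4 months, with 1 array per mouse. The groups were fasted mutant mice (Mut -/-, food removed for 8 to 12 h), fasted heterozygous mice (Mut +/-, 12 h), unfasted mutant mice (Mut -/-) and unfasted heterozygous mice (Mut +/-). All 16 mice carried the TgINS-MCK-Mut transgene, in which the muscle creatine kinase promoter drives Mut, so that the heterozygous mice also had the transgene and no group was wild type. Mutant mice could therefore still make the enzyme in muscle. Because the fast differed in length between genotypes, genotype and length of fast cannot be told apart in the fasted comparison. Values are log2 intensities after robust multi-array averaging (RMA), and a difference of 1 on this scale is a doubling.

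Hepatocytes are polarised cells that discharge bile through their apical (canalicular) membrane and exchange solutes with blood through their basolateral (sinusoidal) membrane. At the canaliculus Abcb11 (the bile salt export pump) delivers bile salts, Abcb4 moves phosphatidylcholine, Abcc2 exports conjugates such as bilirubin glucuronide, Abcg5 and Abcg8 act as a heterodimer that secretes sterols, and Abcg2 and Abcb1a (P-glycoprotein) export drugs and other foreign compounds. At the basolateral side Abcc3 and Abcc4 return glucuronides, sulphates and bile salts to blood and are known to be induced in cholestasis, whereas Abcc6 mediates release of ATP, the source of the mineralisation inhibitor pyrophosphate.

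RefSeq promoter windows on GRCm38.p6 were at hand for 8 of the 10 pumps, in 12 windows. Abcc3 and Abcc6 had no entry. The 250 bases before each start were searched on both strands for motifs known from the regulators of these genes, and the share of all 32851 windows holding each motif is given for scale. The motif TGACNNNGC, the core of the antioxidant response element bound by NRF2, stood in 10.2% of all windows, in both windows of Abcc4 and in that of Abcc2. The nuclear receptor half-site AGGTCA stood in 14% of all windows and in windows of Abcb11, Abcc2 and Abcg2. The first 3 sequences are those of the 2 pumps with the clearest differences below, Abcc4 and Abcb11. They run 5′ to 3′ on the minus strand and end at the base before the start, and capitals mark the motif (TGACNNNGC for Abcc4, AGGTCA for Abcb11, each in either orientation). The motif begins 25 and 23 bases before the start in the 2 Abcc4 windows and 56 bases before it in the Abcb11 window.
Abcc4, chr14:118706220-118706469: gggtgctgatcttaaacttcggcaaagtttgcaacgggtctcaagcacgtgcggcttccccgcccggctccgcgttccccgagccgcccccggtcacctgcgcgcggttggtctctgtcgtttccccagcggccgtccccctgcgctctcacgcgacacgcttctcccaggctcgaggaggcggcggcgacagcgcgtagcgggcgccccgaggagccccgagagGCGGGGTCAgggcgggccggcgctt
Abcc4, second annotated start, chr14:118676932-118677181: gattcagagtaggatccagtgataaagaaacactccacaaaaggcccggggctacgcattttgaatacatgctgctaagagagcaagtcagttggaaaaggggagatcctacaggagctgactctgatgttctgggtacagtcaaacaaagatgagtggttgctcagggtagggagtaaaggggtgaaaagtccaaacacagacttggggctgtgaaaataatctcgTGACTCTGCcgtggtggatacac
Abcb11, chr2:69342617-69342866: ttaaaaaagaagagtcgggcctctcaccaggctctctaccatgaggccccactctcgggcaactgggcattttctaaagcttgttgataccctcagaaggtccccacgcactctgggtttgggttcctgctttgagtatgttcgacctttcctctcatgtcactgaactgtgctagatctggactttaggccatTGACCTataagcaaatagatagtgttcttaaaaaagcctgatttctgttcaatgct

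Abcg5 and Abcg8 are transcribed away from each other, and the interval between their nearest annotated starts was 109 bases. It is shown because both members of this heterodimer share it. It is written 5′ to 3′ on the plus strand, the direction of Abcg8, and capitals mark 2 copies of the GATA factor motif (AGATAA) and 1 copy of the TATA motif (TATAAA), all read on the minus strand. AGATAA occurred in 9.99% and TATAAA in 12.4% of all windows. The hits shown are the same bases for both genes, since their windows at these starts overlap in exactly this interval of 109 bases. A motif match describes these letters and was not tested as a binding site.
Interval between Abcg5 and Abcg8, chr17:84683012-84683120: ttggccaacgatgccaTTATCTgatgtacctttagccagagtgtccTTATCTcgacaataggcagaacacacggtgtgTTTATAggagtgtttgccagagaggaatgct

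Array medians lay between 7.33 and 7.4, and arrays of the same group correlated at 0.985 to 0.996 over all 35556 probe sets. The targeted gene, Mmut, averaged 8.09 ± 0.20 in fasted mutant livers against 9.89 ± 0.15 in fasted heterozygous livers, and 8.04 ± 0.20 in unfasted mutant livers against 9.82 ± 0.11 in unfasted heterozygous livers (SD, n = 4 each). Whether its probes lie in the deleted part is not given in the sources used here. The 9 measured hepatocyte markers averaged 13.00 to 13.06 in fasted mutant and 13.09 to 13.18 in fasted heterozygous livers. Unfasted, they averaged 12.73 to 13.05 in mutant and 12.98 to 13.13 in heterozygous livers. For 5 of 9 the fasted genotypes did not overlap, where 23.7% of all genes separated. By limma 1 of 9, Serpina1c, had an adjusted p under 0.05 in each genotype comparison (13.6% of all genes fasted, 7.94% unfasted). It fell by 0.38 fasted and 0.40 unfasted. One array stood apart: in unfasted mutant mouse 1 the pancreatic enzyme gene Cpa1 read 12.29, against 6.84 to 7.22 on the other 15 arrays. Without this array, Abcb11 was -0.30 between unfasted genotypes (limma, adjusted p = 0.11) and -0.56 for fasting in mutant livers (adjusted p = 0.012), and Abcb4 was 0.18 and 0.41 (adjusted p = 0.29 and 0.023). Without it, the unfasted genotype and mutant fasting differences were -0.01 and -0.06 for Abcc2, -0.08 and 0.19 for Abcg2, -0.26 and 0.30 for Abcg5, -0.18 and 0.21 for Abcg8, 0.17 and 0.15 for Abcc3, and 2.17 and 0.03 for Abcc4, and none of these values changed its call. Abcb1a and Abcc6 are given without it beside their values.

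No direction was shared by all pumps of a membrane in the genotype comparisons. The basolateral calls were Abcc4, listed with its genotype difference known, and Abcc6, an unstable call described below. In limma fits adjusted over all genes, 2 of 10 pumps passed the threshold (adjusted p under 0.05) between fasted mutant and fasted heterozygous livers, Abcc4 higher and Abcb11 lower, where 13.6% of all genes passed (8.62% higher, 5.01% lower). Between unfasted mutant and unfasted heterozygous livers 3 of 10 passed, Abcc4 and Abcb1a higher and Abcc6 lower, where 7.94% of all genes passed (4.25% higher, 3.69% lower). Abcc4 is counted in both although its genotype difference was known when the symbols were listed. The counts were not tested against the shares of all genes. Fasting gave 2 calls in mutant livers, Abcb4 higher and Abcb11 lower (3.35% of all genes, 2.33% higher and 1.02% lower). In heterozygous livers it gave 0 by limma (1.57% of all genes, 0.732% higher and 0.838% lower). There 3 pumps had an unadjusted limma p under 0.05, a cut at which all genes were not counted. No pump passed for the interaction of genotype and fasting, where 2 of 19938 genes passed (0.01%, limma, adjusted p under 0.05). No pump had an unadjusted p under 0.05 there either. Abcc2, Abcc3, Abcg2, Abcg5 and Abcg8 passed in none of the 5 comparisons.

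**Figure D1:**
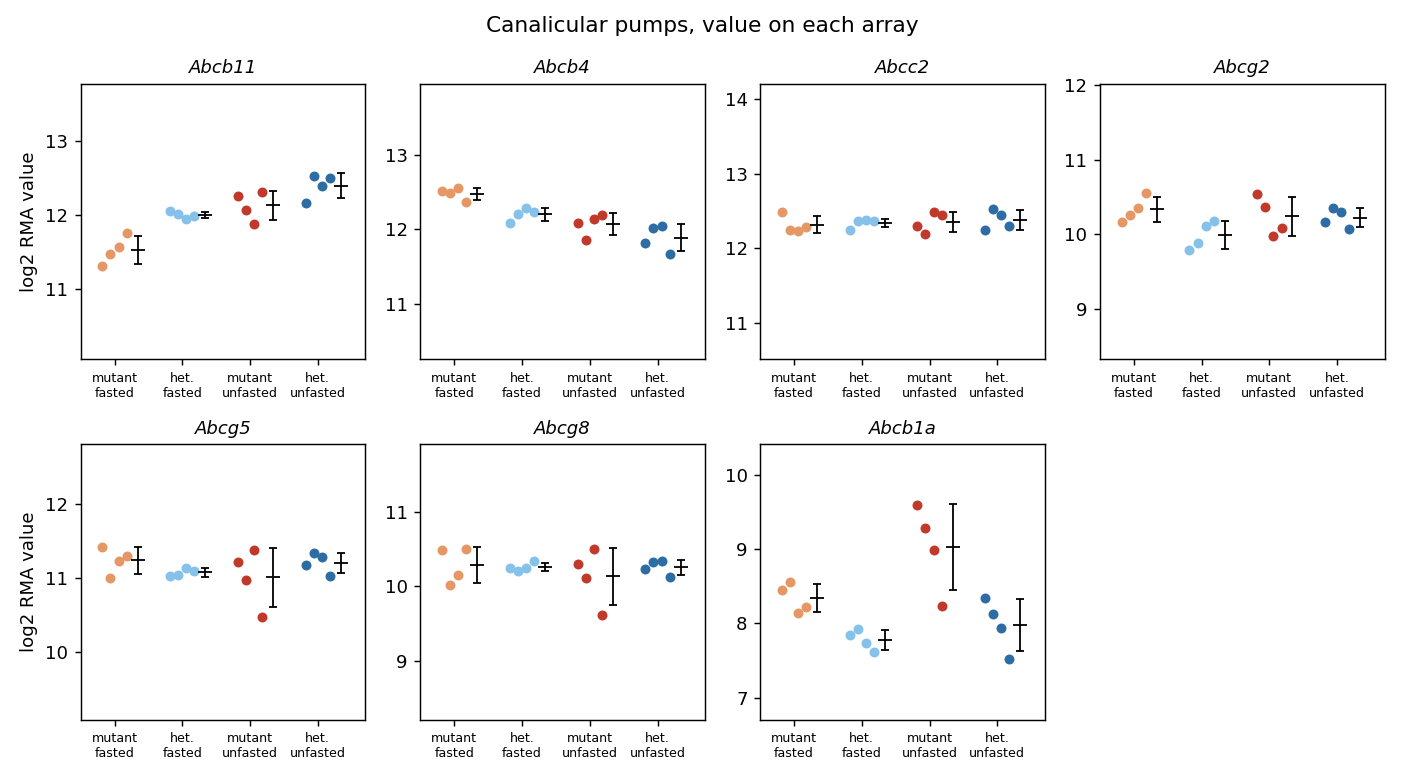
Log2 RMA values of the 7 canalicular pumps on each of the 16 arrays, by group, with 1 point per mouse and the mean ± SD (n = 4) as a bar to the right of the points. All panels span a range of the same width. The 4 fasted mutant livers (11.31 to 11.76) lie below every other liver for Abcb11, and the 4 unfasted mutant livers spread from 8.24 to 9.59 for Abcb1a.

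Abcb11, which exports bile salts into the canaliculus, was lower in mutant than heterozygous livers after fasting, and lower after fasting than before it in mutant livers. It read 11.31, 11.48, 11.57 and 11.76 in the fasted mutant livers, against 12.05, 12.02, 11.95 and 11.99 in the fasted heterozygous livers. Unfasted, it read 12.26, 12.07, 11.88 and 12.31 in mutant livers, against 12.16, 12.52, 12.39 and 12.50 in heterozygous livers. Every fasted mutant liver was below every other liver, whereas the unfasted genotypes overlapped. Between fasted genotypes Abcb11 fell by 0.47 ± 0.11 on the log2 scale (SE, 1.39-fold lower, limma, adjusted p = 0.0087). Between fasted and unfasted mutant livers it fell by 0.60 ± 0.11 (SE, 1.52-fold lower, limma, adjusted p = 0.0099). Fitted on the 8 mutant arrays alone, that second difference kept its size and missed the threshold (adjusted p = 0.082).

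In unfasted livers the Abcb11 difference between genotypes was -0.26 ± 0.11 (95% CI -0.48 to -0.04, limma, adjusted p = 0.15). The fasting difference in heterozygous livers was -0.39 ± 0.11 (95% CI -0.61 to -0.16, adjusted p = 0.085 by limma), and there too the fasted and unfasted arrays did not overlap. It passed the threshold with array weights (adjusted p = 0.011), in a fit on the heterozygous arrays alone (adjusted p = 0.031) and without unfasted heterozygous mouse 1 (adjusted p = 0.037). The interaction, -0.21 ± 0.15, did not pass (95% CI -0.53 to 0.10, limma, adjusted p = 0.57), so that a different response of Abcb11 to fasting in the 2 genotypes was not detectable with 4 mice per group.

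Abcb4, the flippase that supplies phosphatidylcholine to bile, was higher after fasting, opposite in sign to Abcb11. It read 12.51, 12.48, 12.55 and 12.36 in fasted mutant livers, against 12.08, 11.85, 12.14 and 12.19 in unfasted mutant livers. In heterozygous livers it read 12.08, 12.20, 12.28 and 12.23 after the fast, against 11.81, 12.02, 12.04 and 11.66 without it. In both genotypes every fasted liver was above every unfasted one. The rise in mutant livers was 0.41 ± 0.09 (SE, 1.33-fold, limma, adjusted p = 0.024). It missed the threshold without unfasted mutant mouse 2 (0.33, adjusted p = 0.064), without fasted mutant mouse 2 (0.41, adjusted p = 0.066) or 3 (0.38, adjusted p = 0.060), and in a fit on the mutant arrays alone (adjusted p = 0.089).

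The Abcb4 fasting difference in heterozygous livers was 0.32 ± 0.09 (95% CI 0.13 to 0.51), which did not pass (limma, adjusted p = 0.1) except with array weights (adjusted p = 0.032). Its interaction was 0.09 ± 0.13 (95% CI -0.18 to 0.36). Between fasted genotypes Abcb4 differed by 0.27 ± 0.09 with groups that did not overlap and an adjusted p of 0.052 by limma, just outside the threshold. It passed on the fasted arrays alone (adjusted p = 0.018), with array weights (0.038), after a second quantile normalization (0.031), among genes above the median brightness (0.038) and without unfasted mutant mouse 2 or 4, unfasted heterozygous mouse 4 or fasted mutant mouse 4 (adjusted p of 0.036 to 0.050). Between unfasted genotypes it differed by 0.18 ± 0.09 (95% CI -0.01 to 0.37).

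Abcb1a, the P-glycoprotein that exports drugs, was about doubled in unfasted mutant livers. Fasted, it read 8.45, 8.55, 8.14 and 8.22 in mutant livers, against 7.85, 7.92, 7.73 and 7.61 in heterozygous livers. Unfasted, it read 9.59, 9.28, 8.99 and 8.24 in mutant livers, against 8.34, 8.12, 7.94 and 7.52 in heterozygous livers. The fasted genotypes did not overlap, whereas unfasted mutant mouse 4 lay below unfasted heterozygous mouse 1. Between unfasted genotypes Abcb1a rose by 1.05 ± 0.22 (SE, 2.07-fold, limma, adjusted p = 0.01), and by 0.86 without unfasted mutant mouse 1, the array with pancreatic RNA (adjusted p = 0.024). Fitted on the 8 unfasted arrays alone, the same difference missed the threshold (adjusted p = 0.065).

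After fasting the genotype difference of Abcb1a was 0.56 ± 0.22 (95% CI 0.09 to 1.03, limma, adjusted p = 0.11). It passed on the fasted arrays alone (adjusted p = 0.0072) and without unfasted mutant mouse 4 (adjusted p = 0.030). Fasted mutant livers were 0.69 ± 0.22 below unfasted mutant livers (95% CI of the difference -1.16 to -0.21), with an adjusted p of 0.095 by limma. Without unfasted mutant mouse 4 that difference was -0.95 (adjusted p = 0.017), and without unfasted mutant mouse 1 it was -0.50 (adjusted p = 0.13). The heterozygous livers differed by -0.20 ± 0.22, and the interaction was -0.49 ± 0.32 (95% CI -1.16 to 0.18, limma, adjusted p = 0.54), or -0.30 without unfasted mutant mouse 1. Abcb1a has a close paralog, Abcb1b, and how far their probes share transcripts was not tested.

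P-glycoprotein is also known in vascular endothelium, whose markers moved with genotype in these livers. The 15 endothelial markers had a mean log2 value per array of 9.73 to 9.90 in fasted mutant livers against 9.26 to 9.47 in fasted heterozygous livers. Unfasted, the mean was 9.66 to 9.84 in mutant livers against 9.14 to 9.52 in heterozygous livers. By limma, 10 of 15 were called higher in each genotype comparison (medians 0.33 fasted and 0.34 unfasted). Of all genes, 8.62% (fasted) and 4.25% (unfasted) were called higher. The fasted count was 6 without fasted mutant mouse 1 or fasted heterozygous mouse 4. Of all genes, 1303 and 1131 were called higher in those fits, against 1718 with all arrays. The unfasted count was 5 without unfasted heterozygous mouse 3. Of all genes, 377 were called higher in that fit, against 848 with all arrays. Emcn, an endothelial sialomucin, rose by 0.58 ± 0.11 fasted (limma, adjusted p = 0.003) and 0.46 ± 0.11 unfasted (adjusted p = 0.015). In bulk tissue a different number of cells of a type and a different amount of RNA per cell cannot be told apart, and the part of endothelial cells in the Abcb1a difference was not tested.

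Abcg2, the breast cancer resistance protein and another exporter of foreign compounds, passed in no comparison. It read 10.17, 10.26, 10.35 and 10.56 in fasted mutant livers, against 9.79, 9.89, 10.11 and 10.18 in fasted heterozygous livers. Only fasted mutant mouse 1 lay within the heterozygous range. The difference was 0.34 ± 0.12 (95% CI 0.08 to 0.61, limma, adjusted p = 0.078). It passed with array weights (0.37, adjusted p = 0.026) and without unfasted mutant mouse 1 (adjusted p = 0.050). Unfasted livers of both genotypes lay between 9.98 and 10.54, and the difference there was 0.02 ± 0.12 (95% CI -0.25 to 0.28).

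Abcc2, which exports bilirubin glucuronide and other conjugates, had the smallest standard error of the canalicular pumps. It averaged 12.31 ± 0.11 in fasted mutant, 12.34 ± 0.06 in fasted heterozygous, 12.36 ± 0.14 in unfasted mutant and 12.38 ± 0.13 in unfasted heterozygous livers (SD, n = 4 each). The genotype difference was -0.03 ± 0.08 fasted (95% CI -0.19 to 0.14) and -0.02 ± 0.08 unfasted (95% CI -0.19 to 0.14). The fasting difference was -0.05 ± 0.08 in mutant livers (95% CI -0.21 to 0.12) and -0.04 ± 0.08 in heterozygous livers (95% CI -0.21 to 0.12). The intervals for Abcc2 thus reached at most a 1.1-fold excess in mutant livers in either feeding state.

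Abcg5 and Abcg8, the subunits of the sterol pump, passed in no comparison. Abcg5 read 11.42, 11.00, 11.23 and 11.29 in fasted mutant livers against 11.02, 11.04, 11.14 and 11.10 in fasted heterozygous livers, and 11.21, 10.97, 11.38 and 10.47 in unfasted mutant livers against 11.17, 11.33, 11.28 and 11.03 in unfasted heterozygous livers. Abcg8 read 10.48, 10.02, 10.15 and 10.50 in fasted mutant livers against 10.25, 10.20, 10.24 and 10.34 in fasted heterozygous livers, and 10.30, 10.11, 10.50 and 9.61 in unfasted mutant livers against 10.23, 10.33, 10.34 and 10.12 in unfasted heterozygous livers. Unfasted mutant mouse 4 was the lowest of all 16 for both genes, and the mutant groups were the more spread. The genotype differences were 0.16 ± 0.15 fasted and -0.19 ± 0.15 unfasted for Abcg5 (95% CI -0.15 to 0.47 and -0.51 to 0.12). For Abcg8 they were 0.03 ± 0.15 fasted and -0.12 ± 0.15 unfasted (95% CI -0.29 to 0.35 and -0.44 to 0.20). Without unfasted mutant mouse 4 the unfasted differences were -0.02 for Abcg5 and 0.05 for Abcg8, and the fasting differences in mutant livers were 0.05 and -0.02.

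The values of Abcg5 and Abcg8 followed each other from mouse to mouse. Over the 16 arrays Pearson's r was 0.93 (permutation p = 1e-05, the smallest that 100000 permutations can give) and Spearman's rho 0.81 (permutation p = 0.00023). These p-values are two-sided, and this was the 1 relation tested. The permutations shuffled all 16 arrays without regard to group, so they do not test agreement within groups. Without the 2 arrays farthest from the median of Abcg5, unfasted mutant mouse 4 and fasted mutant mouse 1, r was 0.78 over 14 arrays. Deviations from the group means, pooled over the 4 groups, gave r = 0.95, and r = 0.89 over 15 arrays without unfasted mutant mouse 4, a setting chosen after seeing the data. Groups of 4 are too small for a correlation of their own. Both values of a pair come from 1 array and share its labelling and scan.

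**Figure D2:**
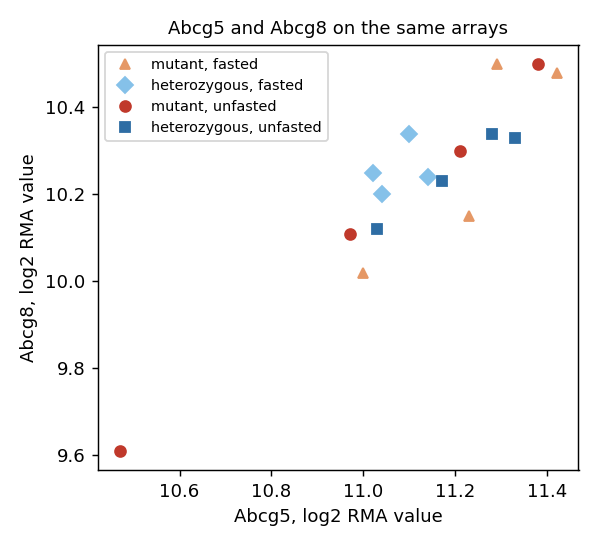
Log2 RMA value of Abcg8 (vertical) against Abcg5 (horizontal), 1 point per mouse, with a marker for each group. The points run along a line (Pearson's r = 0.93, n = 16), and the lowest point is unfasted mutant mouse 4 at 10.47 and 9.61.

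**Figure D3:**
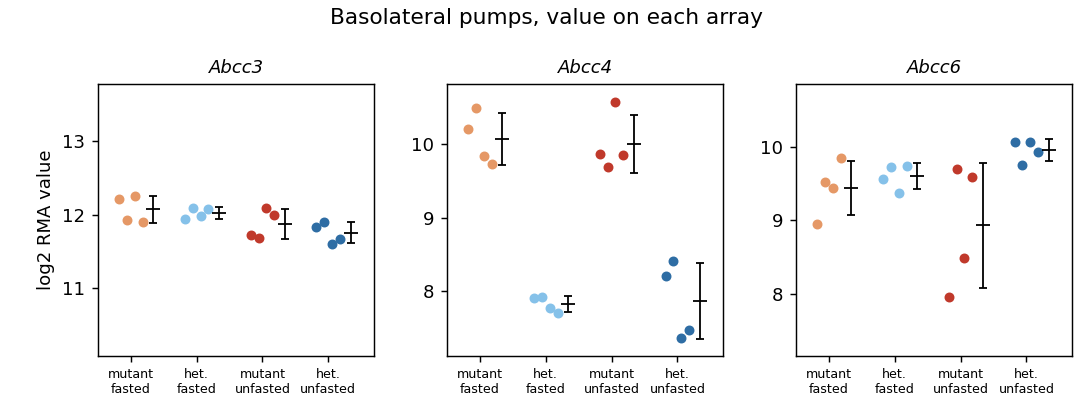
Log2 RMA values of the 3 basolateral pumps on each of the 16 arrays, by group, with 1 point per mouse and the mean ± SD (n = 4) as a bar to the right of the points. All panels span a range of the same width. Abcc4 lies between 9.69 and 10.58 in the 8 mutant livers and between 7.37 and 8.42 in the 8 heterozygous livers, and Abcc6 spreads from 7.95 to 9.69 in unfasted mutant livers.

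Abcc4, the basolateral exporter of bile salts, cyclic nucleotides and sulphated steroids, separated the genotypes in both feeding states. It read 10.21, 10.50, 9.84 and 9.73 in fasted mutant livers, against 7.91, 7.93, 7.77 and 7.70 in fasted heterozygous livers. Unfasted, it read 9.87, 9.69, 10.58 and 9.86 in mutant livers, against 8.21, 8.42, 7.37 and 7.48 in heterozygous livers. The lowest mutant liver lay above the highest heterozygous liver by more than the range within any of the 4 groups. The difference was 2.24 ± 0.24 fasted (SE, 4.73-fold) and 2.13 ± 0.24 unfasted (SE, 4.37-fold), given as a description. With any 1 of the 16 arrays left out it lay between 2.10 and 2.36 fasted and between 1.94 and 2.31 unfasted.

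Fasting left no detectable mark on Abcc4. Fasted and unfasted livers differed by 0.07 ± 0.24 in mutant mice (95% CI -0.43 to 0.57, limma, adjusted p = 0.88) and by -0.04 ± 0.24 in heterozygous mice (95% CI -0.54 to 0.46, adjusted p = 0.98). The interaction was 0.11 ± 0.33 (95% CI -0.59 to 0.82, limma, adjusted p = 0.91). These intervals allow a rise with fasting of up to 1.49-fold in mutant and 1.37-fold in heterozygous livers. In the unfasted heterozygous livers Abcc4 fell into a higher pair (mice 1 and 2) and a lower pair (mice 3 and 4), which fasted heterozygous livers did not show.

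Abcc6, whose loss in humans causes the ectopic mineralisation of pseudoxanthoma elasticum, was lower in unfasted mutant livers. Fasted, it read 8.95, 9.52, 9.43 and 9.84 in mutant livers, against 9.56, 9.72, 9.37 and 9.74 in heterozygous livers. Unfasted, it read 7.95, 9.69, 8.49 and 9.59 in mutant livers, against 10.06, 9.75, 10.06 and 9.93 in heterozygous livers. The unfasted genotypes did not overlap, but mutant mice 2 and 4 lay close to the heterozygous range and mice 1 and 3 were far below it. Abcc6 fell by 1.02 ± 0.30 between unfasted genotypes (SE, 2.02-fold lower, limma, adjusted p = 0.047). Without unfasted mutant mouse 1, the array with pancreatic RNA and the lowest Abcc6 value, the difference was -0.69 (adjusted p = 0.092).

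The Abcc6 call was the least stable among the pumps. It was lost with any 1 of 12 of the 16 arrays left out (adjusted p up to 0.13), on the 8 unfasted arrays alone (adjusted p = 0.14), with array weights (-0.76, adjusted p = 0.08) and under 2 other settings of the variance estimate (adjusted p = 0.052 and 0.067). Between fasted genotypes Abcc6 differed by -0.16 ± 0.30 (95% CI -0.79 to 0.47). The fasting difference was 0.51 ± 0.30 in mutant livers (95% CI -0.12 to 1.14) and -0.35 ± 0.30 in heterozygous livers (95% CI -0.98 to 0.28). Their difference, 0.86 ± 0.42, did not pass (limma, adjusted p = 0.46). Without unfasted mutant mouse 1 the fasting difference in mutant livers was 0.18 (adjusted p = 0.63) and the interaction 0.53 (adjusted p = 0.38).

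Abcc3, the basolateral exporter of glucuronides, passed in no comparison. It read 12.21, 11.93, 12.26 and 11.90 in fasted mutant livers against 11.94, 12.10, 11.98 and 12.08 in fasted heterozygous livers. Unfasted, it read 11.73, 11.69, 12.10 and 12.00 in mutant livers against 11.84, 11.91, 11.61 and 11.67 in heterozygous livers. The fasted genotypes differed by 0.05 ± 0.10 (95% CI -0.17 to 0.28) and the unfasted ones by 0.12 ± 0.10 (95% CI -0.10 to 0.34). In heterozygous mice every fasted liver was above every unfasted one, by 0.26 ± 0.10 on average (95% CI 0.04 to 0.49, limma, adjusted p = 0.28). In mutant mice the fasting difference was 0.20 ± 0.10 (95% CI -0.02 to 0.42, limma, adjusted p = 0.28).

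**Figure D4:**
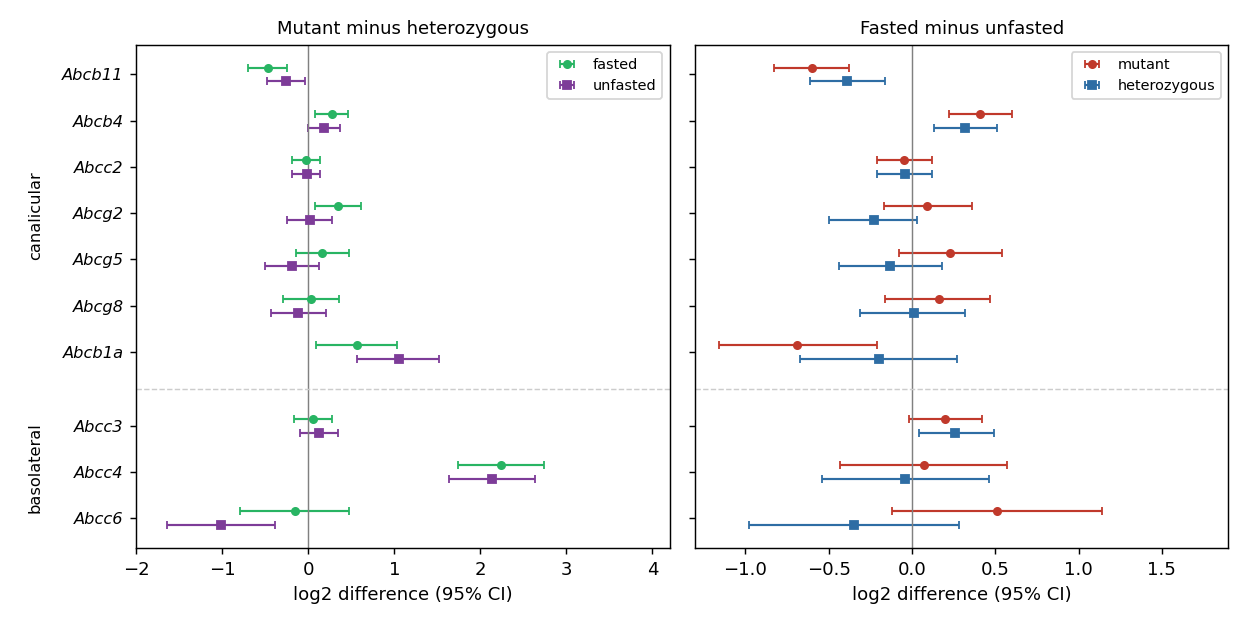
Log2 differences of the 10 pumps with 95% confidence intervals from the fit over 16 arrays, canalicular pumps above the dashed line and basolateral pumps below it. The left panel shows mutant minus heterozygous livers in fasted (upper mark) and unfasted mice (lower mark), the right panel fasted minus unfasted livers in mutant (upper mark) and heterozygous mice (lower mark). Abcc4 stands apart in the left panel (2.24 and 2.13), and Abcb11 and Abcb4 lie on opposite sides of 0 in both panels.

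Set against each other as classes, canalicular and basolateral pumps did not separate. Between fasted genotypes the median difference was 0.16 for the 7 canalicular pumps (range -0.47 to 0.56) and 0.05 for the 3 basolateral pumps (range -0.16 to 2.24), canalicular minus basolateral 0.11, beside a median of -0.02 over all genes. Between unfasted genotypes it was -0.02 for canalicular (range -0.26 to 1.05) and 0.12 for basolateral pumps (range -1.02 to 2.13), canalicular minus basolateral -0.14, beside 0.01 over all genes. The range within each class was wider than the gap between the classes in both comparisons. These gaps have no test.

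For fasting the canalicular median was 0.09 and the basolateral median 0.20 in mutant livers, and -0.13 and -0.04 in heterozygous livers. Canalicular minus basolateral, that is -0.11 and -0.08. On single arrays, the median deviation of canalicular minus basolateral pumps ran from -0.48 to 0.10 in fasted mutant, -0.16 to 0.13 in fasted heterozygous, -0.33 to 0.08 in unfasted mutant and -0.17 to 0.22 in unfasted heterozygous livers, and all 4 groups overlapped. Its mean was -0.23 ± 0.24 in fasted mutant, -0.03 ± 0.13 in fasted heterozygous, -0.12 ± 0.17 in unfasted mutant and -0.01 ± 0.16 in unfasted heterozygous livers (SD, n = 4 each). Between fasted genotypes this summary has the opposite sign to the gap of 0.11 between the medians of fitted differences. The result depended on how a class of 3 was summarised and on which pumps were in it. With class means the fasted genotype gap was -0.59. Without Abcc4 the unfasted genotype gap was 0.42, where Abcc3 differed by 0.12 and Abcc6 by -1.02.

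Groups that did not overlap, a criterion that needs no fit, were found for 4 of 10 pumps between fasted genotypes (Abcc4, Abcb4 and Abcb1a higher, Abcb11 lower), where 23.7% of all genes separated. Between unfasted genotypes there were 2 (Abcc4 higher, Abcc6 lower), against 12% of all genes. Both genotype counts include Abcc4, whose genotype difference was in view when the symbols were chosen. They were not tested against these shares. Fasting separated 2 pumps in mutant livers (Abcb4 higher, Abcb11 lower, against 10% of all genes). It separated 4 in heterozygous livers (Abcb4 and Abcc3 higher, Abcb11 and Abcc6 lower, against 10.5%). Abcb11 and Abcb4 were the pumps that fasting separated in both genotypes.

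Among the 38 other ABC genes with a probe set, 9 passed between fasted genotypes (5 higher, 4 lower) and 5 between unfasted genotypes (3 higher, 2 lower), where 13.6% and 7.94% of all genes passed, with medians of 0.00 in both. Abca8b rose by 1.05 ± 0.19 (limma, adjusted p = 0.0027) and Abca6 fell by 0.48 ± 0.07 (adjusted p = 0.0007) in fasted mutant livers. Abca2, a lipid transporter of lysosomes, fell by 0.81 ± 0.11 in unfasted mutant livers (limma, adjusted p = 0.00071), and the mitochondrial Abcb10 fell by 0.50 ± 0.09 (adjusted p = 0.003). Abcg1, which exports cholesterol to lipoproteins, rose by 0.33 ± 0.06 (adjusted p = 0.0052). These genes are examples. Abca6 fasted and Abca2 unfasted had the largest falls, whereas the largest rises are not among them. Over the 38 genes the differences ran from -0.48 to 1.63 fasted and from -0.81 to 2.14 unfasted.

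Genes for proteins that place or hold the pumps at the canaliculus were counted in the same fit. Of 16 measured partners and scaffold genes, 2 passed between fasted genotypes (1 higher, 1 lower, median 0.06) and 2 between unfasted genotypes (both lower, median -0.01), close to the 13.6% and 7.94% of all genes. Ceacam1, an adhesion protein of the canalicular membrane, fell by 0.34 ± 0.06 in fasted mutant livers (limma, adjusted p = 0.0027) and by 0.28 ± 0.06 in unfasted mutant livers (adjusted p = 0.011). Stx3, an apical syntaxin, rose by 0.34 ± 0.07 in fasted mutant livers (limma, adjusted p = 0.0063). Tmem30a, the subunit that the canalicular flippase Atp8b1 needs, fell by 0.22 ± 0.06 in unfasted mutant livers (limma, adjusted p = 0.037). The unfasted count was 1 without unfasted mutant mouse 3, unfasted heterozygous mouse 2, 3 or 4, or fasted heterozygous mouse 2. In those fits 698 to 1366 of all genes passed, against 1584 with all arrays.

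The transporters that load hepatocytes or work beside these pumps were lower where they passed. Between fasted genotypes 4 of 10 passed and between unfasted genotypes 3 of 10, all lower (medians -0.20 and -0.16), where 5.01% and 3.69% of all genes were lower. Over the 10 genes the differences ran from -3.30 to -0.03 fasted and from -2.98 to 0.69 unfasted. Slc22a7, an organic anion transporter, fell by 0.81 ± 0.24 fasted (limma, adjusted p = 0.038) and by 1.45 ± 0.24 unfasted (adjusted p = 0.0024). Slco2b1, of the organic anion transporting polypeptides, fell by 0.61 ± 0.14 fasted (limma, adjusted p = 0.0089) and by 0.55 ± 0.14 unfasted (adjusted p = 0.021). The fasted count was 2 without fasted mutant mouse 1 or 2 or fasted heterozygous mouse 4. The unfasted count was 1 without unfasted mutant mouse 3 or unfasted heterozygous mouse 1, 3 or 4. In those fasted fits 1575 to 1924 of all genes passed, against 2716 with all arrays. In the unfasted ones 698 to 1534 passed, against 1584.

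Of 15 measured regulators of pump genes, 2 passed between fasted genotypes and 1 between unfasted genotypes, close to the 13.6% and 7.94% of all genes. Nr0b2, the repressor that bile salts induce through the receptor FXR, fell by 1.40 ± 0.31 in fasted mutant livers (limma, adjusted p = 0.0088), and the coactivator Ppargc1a rose by 0.98 ± 0.26 (adjusted p = 0.023). Ahr, the dioxin receptor, rose by 0.65 ± 0.10 in unfasted mutant livers (limma, adjusted p = 0.0016). The fasted count was 1 without fasted mutant mouse 1 or 2 or fasted heterozygous mouse 1 or 4, and the unfasted count was 2 without unfasted mutant mouse 2 or 4 or unfasted heterozygous mouse 1. In those fasted fits 1575 to 1924 of all genes passed, against 2716 with all arrays. In the unfasted ones 1092 to 1651 passed, against 1584. The genes of FXR and NRF2, named here after their values were seen, did not pass: Nr1h4 (FXR) differed by -0.15 ± 0.11 fasted and 0.01 ± 0.11 unfasted, and Nfe2l2 (NRF2) by -0.05 ± 0.13 and -0.08 ± 0.13.

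Other targets of the receptors and factors that act on pump genes were counted in the same fit. Of 18 NRF2 targets, 6 passed between fasted genotypes (all higher, median 0.21) and 2 between unfasted genotypes (both higher, median 0.12), where 8.62% and 4.25% of all genes were higher. Over the 18 genes the differences ran from -0.28 to 3.50 fasted and from -0.27 to 3.50 unfasted. Nqo1, a quinone reductase, rose by 1.25 ± 0.28 in fasted mutant livers (limma, adjusted p = 0.0092), and Hmox1, heme oxygenase, rose by 1.60 ± 0.38 (adjusted p = 0.012). The unfasted NRF2 count was 4 without fasted mutant mouse 1, and 1 without unfasted mutant mouse 1 or 3, unfasted heterozygous mouse 2, 3 or 4, or any fasted heterozygous mouse. In the first of these fits 1781 of all genes passed and in the others 698 to 1728, against 1584 with all arrays. Of 14 targets of CAR and PXR, 7 passed between fasted genotypes (1 higher, 6 lower, median -0.41) and 3 between unfasted genotypes (1 higher, 2 lower, median -0.01), where 13.6% and 7.94% of all genes passed. Sult1d1, a sulphotransferase, fell by 0.94 ± 0.11 in fasted mutant livers (limma, adjusted p = 0.00012).

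Of 14 FXR targets, 4 passed between fasted genotypes (1 higher, 3 lower, median -0.11), where 13.6% of all genes passed. Baat, which conjugates bile acids to amino acids, fell by 0.77 ± 0.12 there (limma, adjusted p = 0.0011), and the lipoprotein receptor gene Vldlr rose by 1.53 ± 0.25 (adjusted p = 0.0017). Between unfasted genotypes 3 passed (1 higher, 2 lower, median -0.03, against 7.94% of all genes), but 1 without unfasted mutant mouse 2 or 3, unfasted heterozygous mouse 3 or 4, or fasted heterozygous mouse 1, 2 or 4. In those fits 698 to 1375 of all genes passed, against 1584 with all arrays. The FXR list was not divided by the direction in which FXR acts on a gene, so the FXR target counts do not measure FXR activity. In it, Fgf15, Slc51a and Slc51b averaged below 7.67, the median of the gene means, in all 4 groups. Of 11 LXR targets, the receptor known to induce Abcg5 and Abcg8, 2 passed between fasted genotypes (1 higher, 1 lower, median -0.06, against 13.6% of all genes). Between unfasted genotypes 3 passed (2 higher, 1 lower, median 0.10, against 7.94% of all genes), and 5 without unfasted mutant mouse 2. Without that mouse 1092 of all genes passed, against 1584 with all arrays. Srebf1, the lipogenic regulator, fell by 1.10 ± 0.17 in unfasted mutant livers (limma, adjusted p = 0.0013).

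The genes whose values followed Abcc4 most closely over the 16 arrays were Cln6 (Pearson's r = 0.981), Mif (0.968), Ptp4a3 (0.967), Prrg4 (0.967) and App (0.964). Cln6 averaged 10.08 ± 0.48 in fasted mutant, 8.61 ± 0.10 in fasted heterozygous, 9.99 ± 0.36 in unfasted mutant and 8.56 ± 0.24 in unfasted heterozygous livers (SD, n = 4 each). Those most like Abcb11 were Akr1c14 (0.937), Slc22a30 (0.929), Akr1c6 (0.924), Sqor (0.924) and Osbpl8 (0.923). Akr1c14 averaged 11.13 ± 0.34 in fasted mutant, 11.74 ± 0.18 in fasted heterozygous, 12.02 ± 0.06 in unfasted mutant and 12.21 ± 0.13 in unfasted heterozygous livers. These correlations describe genes chosen as the highest of all on the same arrays, and they rest in part on the genotype and feeding groups.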

How the data were processed

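Total RNA (300 ng) from snap-frozen livers of 16 mice was labelled and hybridised to Affymetrix mouse gene arrays. The authors deposited log2 values per probe set made with Expression Console and RMA, per the submitters' processing notes, and the log2 scale was read from the values (3.8 to 14.33). Versions are not given in the sources used here. Of 35556 probe sets, 21789 carried 1 gene symbol, 1621 carried several and 12146 were unnamed in the annotation used. The probe set with the highest mean stood for each of 19938 genes, after 21698 probe sets were matched to RefSeq symbols. RMA brings all arrays to 1 distribution, so values are relative within an array. One fit over 16 arrays with a mean per group was made in limma 3.58.1 (R 4.3.3, eBayes with an intensity trend, two-sided), and p-values were adjusted by the Benjamini-Hochberg method over all genes. The fit was tested on simulated data. The members and gene lists were chosen with earlier results of these data known. The genes to name were the pumps, Mmut, up to 3 called genes with the largest difference per list and comparison (4 for other ABC genes) and the 5 genes most like Abcc4 and Abcb11. The text prints some of these, not always the largest. The design text gives separate mice. The replicate numbers were not taken as a pairing of mice. In 9 of 24 pairs of arrays with 1 number the deviations from group means correlated above 0.1 (range -0.12 to 0.25). A fit with the number as a block is given below. The number of arrays limits the precision.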

Additional observations from a re-analysis of the deposited data

How the results depend on the processing

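Each pump value was recomputed under other settings and with each array left out. Of 490 pump values under other settings, 460 kept their direction and side of the threshold, and of 800 with 1 array left out 742 did. Part of these could not change direction. Each pump had 1 probe set, so a mean over probe sets left its difference as it was. So did the other variance settings, the stricter threshold and leaving out an array that was not in the comparison. Fitted on only the arrays compared, the number of called pumps was 4 between fasted genotypes and 1 between unfasted genotypes. It was 0 for fasting in mutant and 1 for fasting in heterozygous livers. Of all 19938 genes, 3026, 764, 33 and 568 passed in those fits. With array weights the pump count was 4 between fasted genotypes and 2 for fasting in heterozygous livers, beside 3847 and 1029 of all genes. At an adjusted p under 0.01 the pump count was 1 between unfasted genotypes and 1 for fasting in mutant livers, beside 461 and 79 of all genes. With 1 array left out the pump count ran from 2 to 4 between fasted genotypes (4 without unfasted mutant mouse 4) and 2 to 3 between unfasted genotypes. It ran from 1 to 3 for fasting in mutant livers (1 without unfasted mutant mouse 2 or fasted mutant mouse 2 or 3). For fasting in heterozygous livers it ran from 0 to 1 (1 without unfasted heterozygous mouse 1). Of all genes, 2902 passed between fasted genotypes without unfasted mutant mouse 4. For fasting in mutant livers, 287, 224 and 371 passed without unfasted mutant mouse 2, fasted mutant mouse 2 and fasted mutant mouse 3. For fasting in heterozygous livers, 336 passed without unfasted heterozygous mouse 1.

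With the replicate number as a block, 3 pumps passed between fasted genotypes, 3 between unfasted genotypes and 3 for fasting in mutant livers (2739, 1672 and 644 of all genes). The added call in the first and last was Abcb1a (adjusted p = 0.02 and 0.024), and the block changed no other pump call. The canalicular minus basolateral gap with class means was -0.59 between fasted genotypes, -0.32 for fasting in mutant livers and -0.27 for the interaction. Without Abcc4 it was 0.42 between unfasted genotypes and -0.30 for the interaction. With 1 array left out it ran from 0.03 to 0.17 between fasted genotypes, from -0.25 (without unfasted mutant mouse 1) to -0.03 (without mouse 4) between unfasted genotypes, from -0.27 (without unfasted mutant mouse 3) to 0.04 (without mouse 1) for fasting in mutant livers, from -0.23 to 0.11 for fasting in heterozygous livers and from -0.24 to 0.12 for the interaction. In the last 2, unfasted heterozygous mouse 3 moved it most.

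Of the 50 pump values, 16 changed sign somewhere, none of them called and none larger than 0.16. After a second quantile normalization Abcc2 was 0.03 between unfasted and 0.01 between fasted genotypes, Abcg8 was -0.03 between fasted genotypes, and Abcc4 was -0.01 for fasting in mutant livers. On median-centred arrays Abcg2 was -0.03 between unfasted genotypes, Abcg8 was -0.01 for fasting in heterozygous livers and the Abcc2 interaction was 0.02. With array weights the Abcc2 interaction was 0.02 and Abcc4 was 0.05 for fasting in heterozygous livers. With 1 array left out, values between fasted genotypes ran from -0.04 to 0.12 for Abcg8, -0.01 to 0.11 for Abcc3 and -0.30 to 0.00 for Abcc6. Between unfasted genotypes they ran from -0.07 to 0.03 for Abcc2, -0.08 to 0.11 for Abcg2 and -0.24 to 0.05 for Abcg8. Fasting in mutant livers ran from -0.02 to 0.28 for Abcg8 and -0.07 to 0.26 for Abcc4. Fasting in heterozygous livers ran from -0.09 to 0.01 for Abcc2, -0.04 to 0.03 for Abcg8 and -0.21 to 0.14 for Abcc4. The interaction ran from -0.06 to 0.04 for Abcc2, -0.02 to 0.27 for Abcg8, -0.13 to 0.01 for Abcc3 and -0.07 to 0.31 for Abcc4. The cause of these changes was not tested. Over all settings, called genes numbered 1575 to 3847 between fasted genotypes, 698 to 1897 between unfasted genotypes, 33 to 1941 for fasting in mutant livers and 155 to 1029 for fasting in heterozygous livers, against 2716, 1584, 667 and 313 as reported.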

Other observations

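Abcb1b, the paralog of Abcb1a, was examined after its values were seen. It read 8.81 in fasted mutant mouse 1, against 5.78 to 6.17 on the other 15 arrays. In that mouse Abcb1a read 8.45, within the range of the other fasted mutant livers (8.14 to 8.55). The difference of Abcb1b between fasted genotypes was 0.57 ± 0.45 (limma, adjusted p = 0.41) and between unfasted genotypes -0.06 ± 0.45 (adjusted p = 0.97), so that 1 liver and not the group held the high value.

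Macrophage markers also differed between genotypes after fasting. The 12 markers had a mean log2 value per array of 9.49 to 9.84 in fasted mutant livers against 8.78 to 9.29 in fasted heterozygous livers, and 10 of 12 were called higher by limma (median 0.70), where 8.62% of all genes were. Vsig4, a complement receptor of Kupffer cells, rose by 0.91 ± 0.20 (limma, adjusted p = 0.009). Between unfasted genotypes 0 of 12 were called by limma (4 at an unadjusted p under 0.05, median 0.28), and 2 without unfasted mutant mouse 4. The share of all genes at that unadjusted cut was not counted. Without unfasted mutant mouse 4, 1651 of all genes passed at an adjusted p under 0.05, against 1584 with all arrays. The part of macrophages in any pump value was not tested.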
